A study of Mus musculus with 26 samples.

Results

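Fatty acid oxidation, ketogenesis and their regulator PPARA were followed through 35 mouse genes, chosen by gene symbol from 22322 symbols measured in the liver RNA of clock gene knockouts. Each symbol was represented by its best expressed transcript, and all 35 symbols were found. They comprise Ppara itself, 4 genes of fatty acid uptake, binding and activation, 4 of the carnitine shuttle and 10 of mitochondrial β-oxidation. A further 3 encode the electron transfer flavoprotein system, 9 act in peroxisomes, 1 is a ketone body enzyme, and 3 are fuel switch or hormone genes.

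RNA was sequenced from 20 livers of mice aged 8 weeks that had spent 2 days in darkness. In the Bmal1 experiment, mice labelled as liver-specific Bmal1 knockouts were set against wild-type C57BL/6 mice, with n = 3 livers per genotype at CT12 and at CT0. In the Nr1d1 experiment, mice labelled Nr1d1 knockout were set against wild-type C57BL/6 mice, with n = 2 livers per genotype at each time. CT0 is the hour at which the lights used to come on, and CT12 is the hour at which they used to go off. All mice were fed ad libitum, and the driver that deletes Bmal1 in the liver is not given in the sources used here. Bmal1 (gene symbol Arntl) encodes the activating factor of the circadian clock, and Nr1d1 encodes the clock repressor REV-ERBα.

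PPARA is a nuclear receptor that binds fatty acids, pairs with the retinoid X receptor and switches on the genes of fat burning in the liver. Long-chain fatty acids are activated to acyl-CoA, carried into mitochondria as carnitine esters by way of CPT1A, the controlled entry step, and shortened by β-oxidation. Very long and branched chains are shortened first in peroxisomes. In fasting the liver turns the resulting acetyl-CoA into ketone bodies, PDK4 holds back glucose oxidation and the hormone FGF21 is released.

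The labels were checked on the targeted genes, and in part the libraries went against them. Arntl stood at 3.59 to 4.37 RPKM (read number per transcript length and library depth) in livers labelled Bmal1 knockout at CT12, above 0.68 to 1.26 in control livers. At CT0 it stood at 5.73 to 7.45 RPKM in livers labelled Bmal1 knockout, below 15.7 to 16.35 in control livers. The Nr1d1 transcript was higher in the liver labelled Nr1d1 knockout than in its control in 3 of 4 pairs, and lower only in replicate 2 at CT12 (28.4 against 33.42 RPKM). Arntl was higher in both livers labelled Nr1d1 knockout at CT12 (8.0 against 0.6 and 19.28 against 1.3 RPKM). At CT0 it was lower in both (8.03 against 8.92 and 19.91 against 39.71 RPKM). Nr1d1 stood at 0.27, 0.31 and 0.8 RPKM in livers labelled Bmal1 knockout at CT0, below 2.04, 2.05 and 6.57 RPKM in controls. At CT12 it stood at 0.97, 1.61 and 1.56 against 2.35, 2.95 and 1.56 RPKM. The deleted parts of both genes are not given, so a value over a whole transcript checks the labels only in part, and the groups are called by their labels throughout. Hepatocyte markers headed by albumin (Alb) were high in every library, and skeletal muscle markers summed to at most 2.23 RPKM. Replicate 2 of the Nr1d1 experiment, the only one described as paired-end, had summed RPKM of 2099302 to 2211054, against 588418 to 875424 in replicate 1, so this experiment was compared within replicates. Low RPKM values came in steps of single reads, which gave the relative depths of the Bmal1 libraries as 0.607 to 1.006 of the first control library at CT0.

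Levels spanned a wide range, and RPKM is scaled to transcript length, so genes can be set side by side. In control livers of the Bmal1 experiment at CT12, the lowest mean levels were those of Fgf21 (0.267 RPKM), Pdk4 (0.929 RPKM) and the peroxisomal transporter gene Abcd2 (6.28 RPKM). The highest was that of Fabp1, the liver fatty acid binding protein, at 5242, 5371 and 6457 RPKM in the 3 livers, followed by the fatty acid transporter Slc27a2 with a mean of 774 RPKM. Fabp1 alone weighs heavily in any summed level of the 35 genes, so it is given apart from the other 34. Fabp1 took 0.42%, 0.69% and 0.81% of the summed RPKM in livers labelled Bmal1 knockout at CT12, against 1.11%, 1.23% and 1.49% in control livers. The other 34 genes together took 0.82%, 0.89% and 1.04% in livers labelled Bmal1 knockout at CT12, against 1.12%, 1.01% and 1.32% in control livers, and these ranges overlap. At CT0 the other 34 took 0.86%, 0.85% and 0.78% in livers labelled Bmal1 knockout, against 0.88%, 1.02% and 1.02% in control livers, and the ranges do not overlap.

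At CT12 the regulator itself and several steps below it were lower in livers labelled Bmal1 knockout. Ppara, the peroxisomal thiolase genes Acaa1a and Acaa1b, the binding protein gene Fabp1 and the entry enzyme gene Cpt1a fell, and Pdk4, which encodes a pyruvate dehydrogenase kinase, rose. With limma on log2(RPKM + 0.5), 9 of the 34 genes that passed the filter on low values were called at an adjusted p under 0.05, against a background of 9.68% of all 11439 genes tested. Of these, 8 were lower, where 3.22% of all genes were lower, and 1 was higher, where 6.46% were higher. The median log2 difference of the 34 genes was -0.34, and that of all genes was 0.09. All 3 livers labelled Bmal1 knockout lay below all 3 control livers in 10 of the 34 genes (8.03% of all genes), and above them in Pdk4 alone (19.9%). Another scaling of the libraries, by the median ratio of genes, shifted the median of all genes by 0.08. It gave 507 higher and 532 lower calls over all genes, in place of 739 higher and 368 lower with the deposited scaling. Under it 14 of the 34 genes were called, 13 lower and 1 higher.

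Ppara measured 24.6, 28.0 and 36.1 RPKM in the livers labelled Bmal1 knockout at CT12, against 56.6, 62.7 and 64.9 RPKM in the control livers. Every control liver was above every liver labelled Bmal1 knockout. The log2 difference was -1.06 ± 0.12 (SE), with a limma adjusted p of 0.000167 (adjustment by Benjamini-Hochberg over all genes, as for every adjusted p here).

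**Figure D1:**
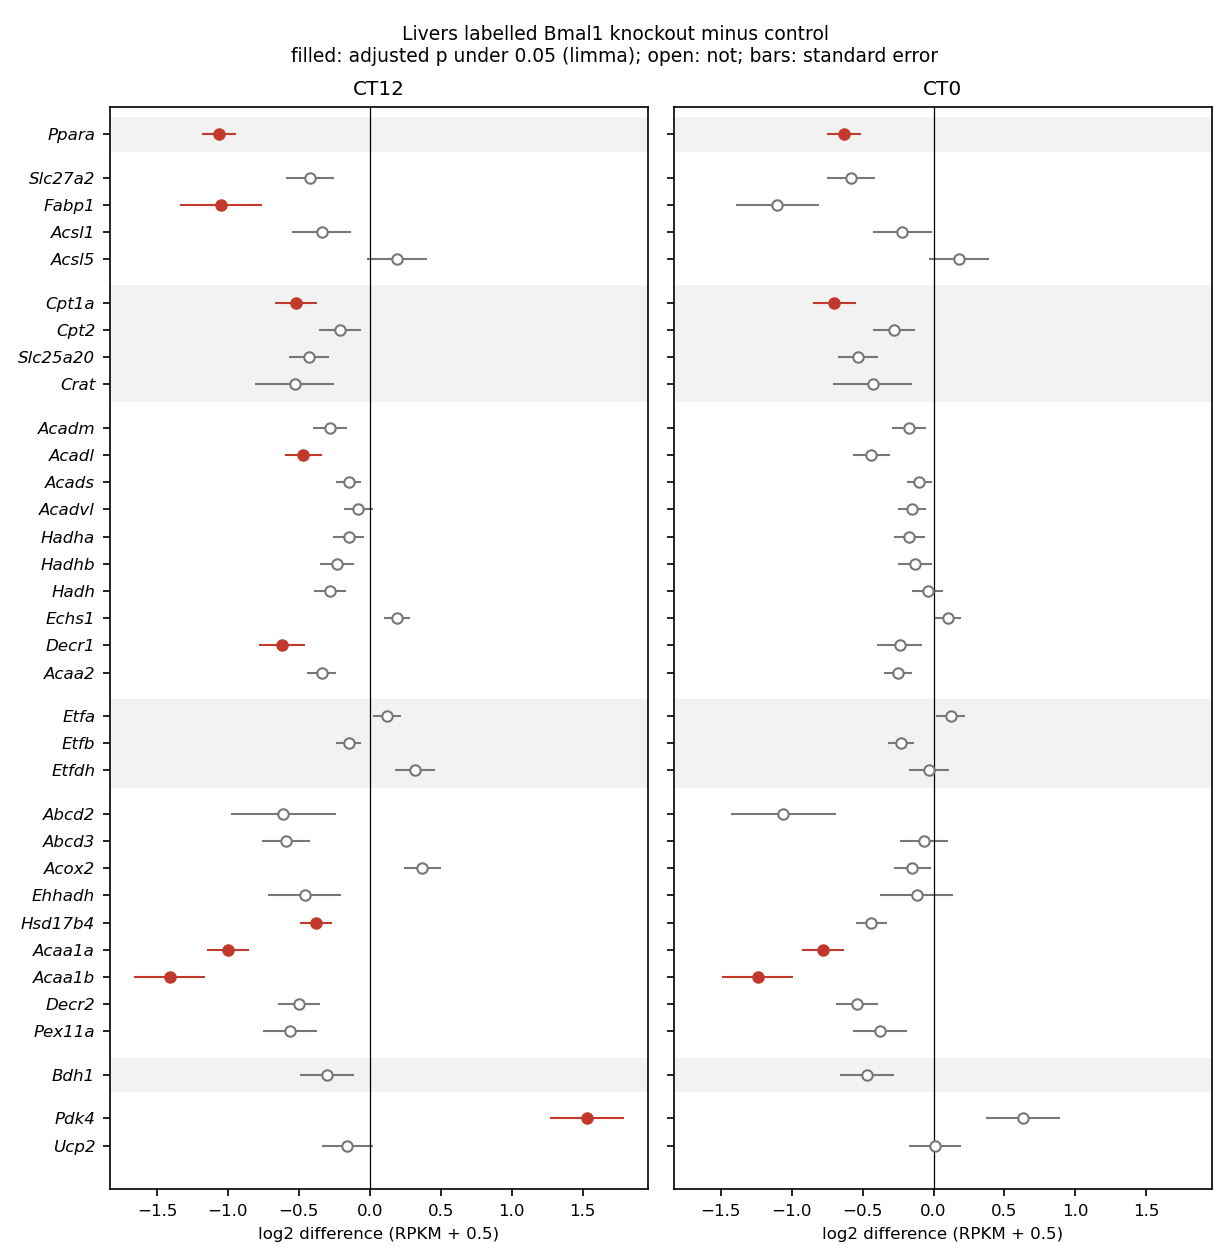
Log2 difference (RPKM + 0.5) between livers labelled Bmal1 knockout and control livers at CT12 (left) and CT0 (right), 1 row per gene, grouped by role and shaded alternately, with bars for the standard error of the limma fit (n = 3 livers per group). Filled points have an adjusted p under 0.05, and most points lie left of 0 at both times, with Pdk4 far to the right at CT12.

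Among the genes of uptake, binding and activation, Fabp1 fell. It measured 1828, 3027 and 3695 RPKM in livers labelled Bmal1 knockout at CT12 and 5242, 5371 and 6457 RPKM in control livers. The groups did not overlap, although the livers labelled Bmal1 knockout spread widely among themselves (log2 difference -1.05 ± 0.29, adjusted p = 0.0405 by limma). The other genes of this step did not pass: Slc27a2 had a log2 difference of -0.42, the acyl-CoA synthetase Acsl1 of -0.34 and its relative Acsl5 of 0.19.

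In the carnitine shuttle, Cpt1a fell. Its level was 63.7, 72.3 and 85.1 RPKM in livers labelled Bmal1 knockout at CT12, against 108, 92.2 and 116 RPKM in control livers. The highest liver labelled Bmal1 knockout was below the lowest control liver, by a small margin, and the log2 difference was -0.52 ± 0.15 (adjusted p = 0.0491 by limma). The inner partners of the shuttle did not pass, with log2 differences of -0.21 for the transferase Cpt2, -0.43 for the carrier Slc25a20 and -0.53 for the acetyltransferase Crat.

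Of the 10 genes of mitochondrial β-oxidation, 2 fell and 0 rose at CT12. They were Decr1, a reductase needed for unsaturated fatty acids (-0.62 ± 0.16, adjusted p = 0.0295 by limma), and Acadl, the long-chain acyl-CoA dehydrogenase (-0.47 ± 0.13, adjusted p = 0.0462 by limma). Decr1 measured 36.1, 46.2 and 60.5 RPKM in livers labelled Bmal1 knockout against 72.3, 65.6 and 78.8 RPKM in control livers, without overlap. The remaining 8 had log2 differences between -0.34 and 0.19, of which the positive one was that of the hydratase Echs1. For the electron transfer flavoprotein, which passes electrons of β-oxidation to the respiratory chain, the subunit genes Etfa and Etfb and the dehydrogenase Etfdh had log2 differences of 0.12, -0.15 and 0.32, and 0 of 3 were called by limma, with Etfdh at an unadjusted p of 0.0354.

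Peroxisomal genes had a median log2 difference of -0.56 at CT12, against -0.25 for the mitochondrial ones, a difference between lists that was not tested. Of 9 peroxisomal genes, 3 fell and 0 rose. Acaa1b, a thiolase of the last peroxisomal step, measured 108, 119 and 194 RPKM in livers labelled Bmal1 knockout and 337, 293 and 480 RPKM in control livers. Its log2 difference was -1.41 ± 0.25 (adjusted p = 0.00362 by limma). The sister gene Acaa1a measured 54.3, 61.6 and 80.2 RPKM in livers labelled Bmal1 knockout and 121, 116 and 156 RPKM in control livers (a fold of 0.5 on the RPKM + 0.5 scale, adjusted p = 0.00116 by limma). For both thiolases the groups were fully apart. Acaa1a and Acaa1b are so alike in sequence that reads could be shared between them, and their separate values are uncertain to that extent. Hsd17b4, the bifunctional enzyme of branched chains, fell by 0.38 ± 0.11 on the log2 scale (adjusted p = 0.0464 by limma). The other 6 had log2 differences between -0.61 and 0.37, with the transporter Abcd2 lowest and the branched-chain oxidase Acox2 highest.

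Bdh1, which interconverts the ketone bodies acetoacetate and β-hydroxybutyrate, did not pass. Its levels were 78.9, 103 and 139 RPKM in livers labelled Bmal1 knockout at CT12 and 117, 121 and 150 RPKM in control livers. These ranges overlap, and the log2 difference was -0.30 ± 0.19 (adjusted p = 0.357 by limma). Pdk4, by contrast, measured 3.24, 3.88 and 3.78 RPKM in livers labelled Bmal1 knockout, against 0.961, 0.84 and 0.984 RPKM in control livers. All 3 livers labelled Bmal1 knockout were well above all control livers, and Pdk4 rose by 1.53 ± 0.26 on the log2 scale (adjusted p = 0.00305 by limma). Fgf21 failed the filter on low values and was not tested in this experiment. Its reads, recovered from the RPKM steps numbered, up to a shared factor, 8, 6 and 14 in livers labelled Bmal1 knockout at CT12 against 5, 2 and 4 in control livers. The uncoupling protein gene Ucp2 had a log2 difference of -0.16.

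**Figure D2:**
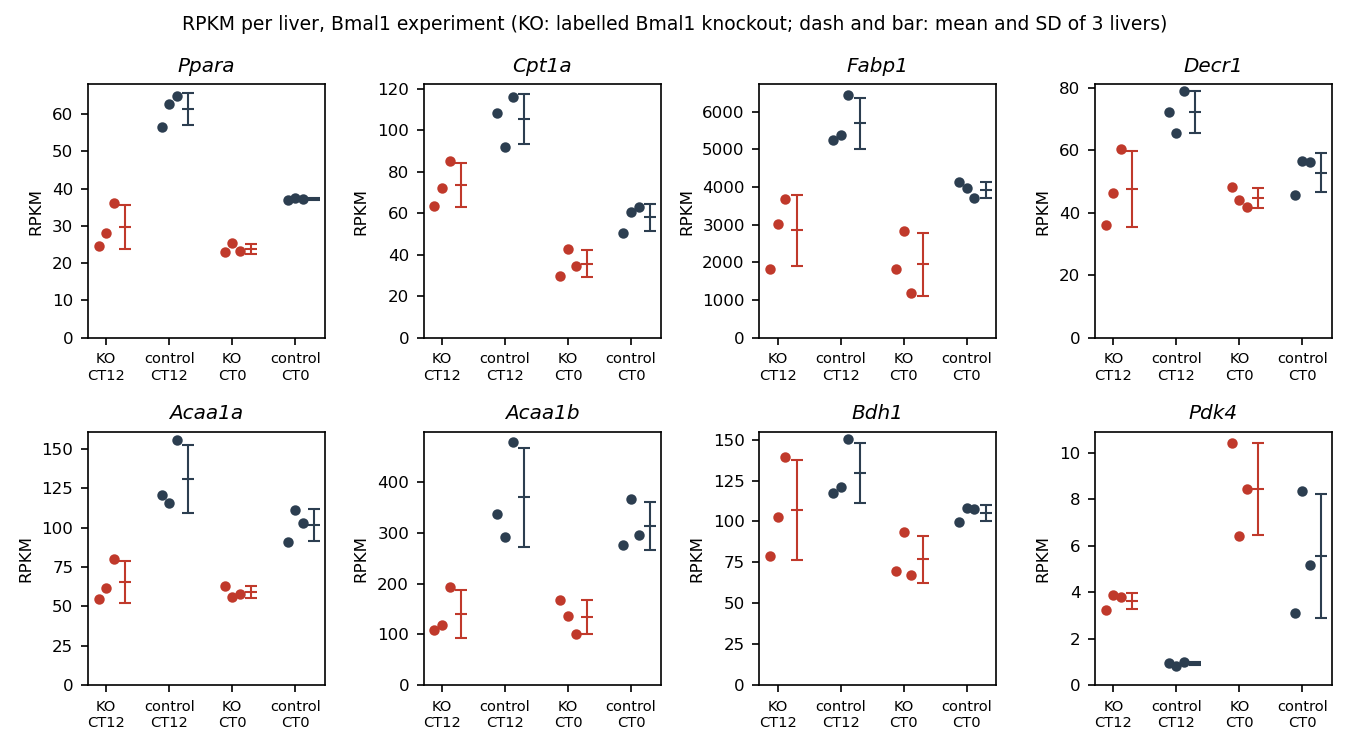
RPKM of 8 genes in each liver of the Bmal1 experiment (points), with the mean and SD of the 3 livers of a group beside them, and axes starting at 0. Ppara, Cpt1a, Fabp1, Acaa1a and Acaa1b of the livers labelled Bmal1 knockout (KO) lie below the control points at both times. Pdk4 of these livers lies above the control points at CT12, with 3.24 to 3.88 RPKM against 0.84 to 0.984.

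The calls of Ppara, Acaa1a, Acaa1b and Pdk4 at CT12 held without each of the 12 libraries in turn, and the others did not. The count of 9 became 4 without control CT12 replicate 3, without knockout CT12 replicate 1 or without knockout CT12 replicate 2. It became 5 without control CT12 replicate 1, control CT0 replicate 2 or control CT0 replicate 3. Decr1 was lost without control CT12 replicate 1 or 3 or knockout CT12 replicate 1 or 2. Cpt1a was lost without any 1 of these, control CT0 replicate 2 or 3, or knockout CT0 replicate 3, and Acadl without any 1 of the same or knockout CT0 replicate 2. Fabp1 was lost without any 1 of the 6 control libraries or without knockout CT12 replicate 1 or 2, and Hsd17b4 in all cases but control CT12 replicate 2 and knockout CT0 replicate 1. Across all alternatives the highest adjusted p by limma was 0.11 for Decr1, 0.165 for Cpt1a, 0.173 for Acadl, 0.133 for Fabp1 and 0.167 for Hsd17b4. All 5 were also lost with no filter on low values. The replicate block ended the calls of Fabp1 and Hsd17b4, the sum over transcripts those of Cpt1a and Acadl, and a fit of the compared groups alone those of Cpt1a, Acadl, Decr1 and Hsd17b4.

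Within groups, single livers stood high or low in many of these genes at once. Knockout CT12 replicate 3 was the highest of its group in 28 of the 34 genes, which is 82.4%, against 41.9% of all genes tested. Control CT12 replicate 3 was the highest of its group in 24 of the 34 (70.6%, against 22.5% of all genes), and control CT12 replicate 2 the lowest in 27 (79.4%, against 32.7%). In bulk liver RNA, fewer hepatocytes and less RNA per hepatocyte cannot be told apart. Alb, the albumin gene, also fell, with 14012 to 16366 RPKM in livers labelled Bmal1 knockout at CT12 against 26609 to 34269 RPKM in control livers (log2 difference -1.05 ± 0.14, adjusted p = 0.000528 by limma). Of 8 hepatocyte markers, 1 fell and 0 rose, their median was 0.06, and their sum was 2.6e+04 to 2.98e+04 RPKM against 3.81e+04 to 4.66e+04 RPKM in control livers. Alb made up most of the hepatocyte sum in both groups, and the lower sum followed Alb. It does not stand for the list, in which 5 markers had positive and 3 negative log2 differences. Of 7 neutrophil markers, 2 rose. Their summed level was 17.8 to 46.3 RPKM in livers labelled Bmal1 knockout at CT12 against 5.94 to 8.8 RPKM in control livers. Of 4 cholangiocyte markers tested 2 rose (sum over 5 markers 88.4 to 124 RPKM against 27.2 to 50 RPKM in control livers), and of 5 erythroid markers 2 rose (sum over 6 markers 246 to 307 RPKM against 107 to 190 RPKM in control livers). Markers of Kupffer cells, endothelium, stellate cells, lymphocytes and adipocytes had 0 calls by limma. All 5 muscle markers were at 0 in the livers labelled Bmal1 knockout at CT12, as were the adipocyte markers Adipoq, Lep, Plin1, Cidea, Cfd and Ucp1. The part of these markers in the lower oxidation genes was not tested.

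The stretches around the start sites of the genes with the largest differences are shown because PPARA binds repeats of the letters AGGTCA. RefSeq start sites were used on GRCm38.p6, 250 bases before to 50 after the start, a build other than the mm9 of the deposited values. Windows were at hand for 30 of the 35 genes. AGGTCA, searched on both strands, occurred in the windows of 6 of these 30 genes (Acadm, Acadvl, Cpt1a, Echs1, Fabp1 and Slc27a2) and in 16.3% of 32851 windows of all genes. The direct repeat of AGGNCA with 1 base of any kind between its copies, as bound by PPARA with its partner, occurred in 0.381% of all windows and among the 30 genes in Fabp1 alone. That match starts 67 bases before the Fabp1 start on the opposite strand and overlaps an AGGTCA match. The E-box CACGTG, the letters bound by BMAL1 with CLOCK, occurred in 7.15% of all windows and in Fgf21 alone among the 30, and the D-box TTATGNAA in 3.38% and in 0 of the 30. The windows of Fabp1 (chr6:71199629-71199928, plus strand), Ppara (chr15:85735526-85735825, plus strand), Acaa1b (chr9:119157044-119157343, minus strand) and Pdk4 (chr6:5496229-5496528, minus strand) read, 5′ to 3′, with matches to the repeat and to AGGTCA in capitals:
Fabp1: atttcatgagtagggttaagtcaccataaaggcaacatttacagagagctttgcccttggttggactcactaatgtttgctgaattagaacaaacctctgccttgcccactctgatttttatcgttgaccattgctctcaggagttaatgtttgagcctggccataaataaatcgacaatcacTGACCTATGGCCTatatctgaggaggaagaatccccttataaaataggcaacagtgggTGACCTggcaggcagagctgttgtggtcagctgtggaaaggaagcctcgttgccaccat
Ppara: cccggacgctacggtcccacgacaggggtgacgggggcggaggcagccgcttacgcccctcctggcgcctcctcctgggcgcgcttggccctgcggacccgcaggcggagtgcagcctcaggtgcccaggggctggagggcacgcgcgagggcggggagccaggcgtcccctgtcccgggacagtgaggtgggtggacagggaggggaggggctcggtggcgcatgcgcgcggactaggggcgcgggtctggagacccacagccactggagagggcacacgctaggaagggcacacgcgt
Acaa1b: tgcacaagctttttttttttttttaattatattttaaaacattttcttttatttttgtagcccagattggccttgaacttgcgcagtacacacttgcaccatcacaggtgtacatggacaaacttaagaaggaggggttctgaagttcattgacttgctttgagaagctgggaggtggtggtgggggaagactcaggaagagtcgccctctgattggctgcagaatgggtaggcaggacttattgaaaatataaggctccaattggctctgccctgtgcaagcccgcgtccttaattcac
Pdk4: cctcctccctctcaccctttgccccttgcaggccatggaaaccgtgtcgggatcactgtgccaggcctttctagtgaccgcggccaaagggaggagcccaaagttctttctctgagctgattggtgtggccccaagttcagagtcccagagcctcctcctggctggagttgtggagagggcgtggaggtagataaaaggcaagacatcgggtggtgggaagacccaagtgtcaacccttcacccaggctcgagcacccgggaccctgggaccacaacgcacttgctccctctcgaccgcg
Capitals stand in the Fabp1 window alone, and both of its matches are read on the opposite strand. A window without a match says only that these letters are not in it.

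At CT0 fewer genes were called, and the same side was lower. Of the 34 genes tested, 4 fell and 0 rose in livers labelled Bmal1 knockout (limma), where 1.62% of all genes were called, 0.708% lower and 0.909% higher. At an unadjusted p under 0.05, 14 were lower and 1 was higher, and of all 11439 genes 1559 passed this threshold in either direction. The median log2 difference was -0.23, and that of all genes was 0.01. All 3 livers labelled Bmal1 knockout lay below all 3 control livers in 20 of the 34 genes (9.07% of all genes), and above them in 0 (10.8%). The 20 take in Ppara, Fabp1 and Slc27a2, the shuttle genes Cpt1a, Cpt2 and Slc25a20, 5 mitochondrial enzymes, Etfb, 7 peroxisomal genes and Bdh1.

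Ppara measured 23.0, 25.4 and 23.2 RPKM in livers labelled Bmal1 knockout at CT0 and 36.9, 37.5 and 37.1 RPKM in control livers. Livers within a group were close to each other, and the log2 difference was -0.63 ± 0.12 (adjusted p = 0.0253 by limma). Cpt1a measured 29.9, 42.6 and 34.8 RPKM in livers labelled Bmal1 knockout and 50.6, 60.6 and 63.1 RPKM in control livers. It fell by 0.70 ± 0.15 on the log2 scale (adjusted p = 0.0398 by limma), and the groups were apart.

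The thiolases also fell at CT0. Acaa1a measured 63.1, 55.9 and 57.6 RPKM in livers labelled Bmal1 knockout, against 91.0, 111 and 103 RPKM in control livers (-0.78 ± 0.15, adjusted p = 0.0252 by limma). Acaa1b measured 167, 136 and 100 RPKM in livers labelled Bmal1 knockout, against 276, 367 and 297 RPKM in control livers (-1.24 ± 0.25, adjusted p = 0.0311 by limma). Neither pair of groups overlapped. Fabp1 differed by about as much as Acaa1b, with 1814, 2841 and 1198 RPKM in livers labelled Bmal1 knockout against 4127, 3971 and 3708 RPKM in control livers, and it was not called, with a wide spread among the livers labelled Bmal1 knockout (-1.10 ± 0.29, adjusted p = 0.092 by limma).

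Bdh1 stood at 69.6, 93.3 and 67.5 RPKM in livers labelled Bmal1 knockout at CT0 and at 99.8, 108 and 108 RPKM in control livers. The groups were apart, and the difference did not pass (-0.47 ± 0.19, adjusted p = 0.28 by limma). For Pdk4 the levels were 10.4, 6.43 and 8.46 RPKM in livers labelled Bmal1 knockout and 3.11, 8.38 and 5.18 RPKM in control livers. These ranges overlap, and the log2 difference was 0.63 ± 0.26 (adjusted p = 0.303 by limma). Fgf21 had 4, 3 and 2 recovered reads in livers labelled Bmal1 knockout and 5, 9 and 11 in control livers.

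All 4 calls at CT0 rested on single libraries. Without control CT0 replicate 2, control CT0 replicate 3 or knockout CT0 replicate 3 the count was 0, and without control CT0 replicate 1 or knockout CT0 replicate 1 it was 2. Ppara was lost without any of these 5 libraries, and Acaa1b without the 3 control CT0 libraries or knockout CT0 replicate 2 or 3, each in turn. Acaa1a was lost without control CT0 replicate 2 or 3 or knockout CT0 replicate 2 or 3. Cpt1a was lost without control CT0 replicate 2 or 3, control CT12 replicate 1, knockout CT0 replicate 1 or 3, or knockout CT12 replicate 2. The highest adjusted p across alternatives was 0.1 for Ppara, 0.116 for Acaa1a, 0.134 for Acaa1b and 0.154 for Cpt1a. No filter on low values ended the calls of Acaa1b and Cpt1a, the replicate block that of Acaa1b, and a fit of the compared groups alone that of Cpt1a. Alb fell here as well (-0.93 ± 0.14, adjusted p = 0.00709 by limma). It was the 1 call among 8 hepatocyte markers, of which 3 had positive and 5 negative log2 differences, with a median of -0.16. The 7 neutrophil markers summed to 104 to 219 RPKM in livers labelled Bmal1 knockout against 32.2 to 112 RPKM in control livers. Limma called 0 of these 7, and their median was 1.39. Of 4 cholangiocyte markers tested, Spp1 rose, with a summed level over 5 markers of 93.1 to 152 RPKM against 48.6 to 64.8 RPKM in control livers. Their part in these differences was not tested.

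Over time, the control livers of the Bmal1 experiment had more Ppara, Cpt1a and Pex11a and less Pdk4 at CT12 than at CT0. Limma called 4 of 34 genes, 3 higher and 1 lower, against a background of 10.8% of all genes (3.4% higher and 7.43% lower). With median-ratio scaling the split over all genes was 567 higher and 673 lower, in place of 389 higher and 850 lower. The median log2 difference was 0.20, and that of all genes was -0.08. All CT12 livers lay above all CT0 livers in 10 of the 34 genes (10.7% of all genes) and below them in 3 (22.8%), namely Acsl5, Acox2 and Pdk4.

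Pdk4 had the widest daily difference, with 0.84 to 0.984 RPKM in control livers at CT12 against 3.11 to 8.38 RPKM in control livers at CT0 (-1.99 ± 0.26, adjusted p = 0.000616 by limma). Ppara stood at 56.6 to 64.9 RPKM at CT12 against 36.9 to 37.5 RPKM at CT0 in control livers, and rose by 0.71 ± 0.12 on the log2 scale (adjusted p = 0.00322 by limma). Cpt1a stood at 92.2 to 116 RPKM at CT12 against 50.6 to 63.1 RPKM at CT0 and rose by 0.86 ± 0.15 (adjusted p = 0.00398 by limma). In each of these genes the times did not overlap, and the calls held without each library in turn. Pex11a, which acts in peroxisome division, rose by 0.82 ± 0.19 (adjusted p = 0.0189 by limma) and lost its call without control CT0 replicate 1, control CT0 replicate 3 or control CT12 replicate 3 (highest adjusted p 0.0708). Bdh1 did not pass (0.29 ± 0.19, adjusted p = 0.353 by limma). Of 7 neutrophil markers 5 were called lower at CT12 in control livers (sum 5.94 to 8.8 RPKM against 32.2 to 112 RPKM at CT0), as were 2 of 5 erythroid, 2 of 9 stellate cell, 1 of 10 Kupffer cell, 1 of 9 endothelial and 1 of 4 cholangiocyte markers. The adipocyte marker Plin4 was called higher. Their part in these differences was not tested.

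In livers labelled Bmal1 knockout, Cpt1a alone was called between the times, where 1.9% of all genes were called, 0.909% higher and 0.988% lower. It stood at 63.7 to 85.1 RPKM at CT12 against 29.9 to 42.6 RPKM at CT0 and rose by 1.04 ± 0.15 on the log2 scale (adjusted p = 0.00771 by limma). The times did not overlap, and the call held without each library in turn, but not in a fit of the compared groups alone (adjusted p = 0.0581). Pdk4 stood at 3.24 to 3.88 RPKM at CT12 against 6.43 to 10.4 RPKM at CT0 in these livers, without overlap, and just missed the threshold (-1.09 ± 0.26, adjusted p = 0.058 by limma). Ppara stood at 24.6 to 36.1 RPKM at CT12 against 23.0 to 25.4 RPKM at CT0, with overlap (0.29 ± 0.12, adjusted p = 0.221 by limma), and Bdh1 at 78.9 to 139 against 67.5 to 93.3 RPKM (0.45 ± 0.19, adjusted p = 0.213 by limma). Of 7 neutrophil markers 5 were called lower at CT12 in these livers (sum 17.8 to 46.3 RPKM against 104 to 219 RPKM at CT0, median -2.20). The stellate cell marker Pdgfrb was called lower and the adipocyte marker Plin4 higher, and the part of these markers in the values above was not tested. The count of 1 became 2 without control CT0 replicate 1 or control CT0 replicate 2 and 3 without knockout CT0 replicate 2, and in each of these Pdk4 was called (adjusted p of 0.0218, 0.03 and 0.0498 by limma). All CT12 livers lay above all CT0 livers in 7 of the 34 genes (11.4% of all genes) and below them in Pdk4 and Crat (11.2%).

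**Figure D3:**
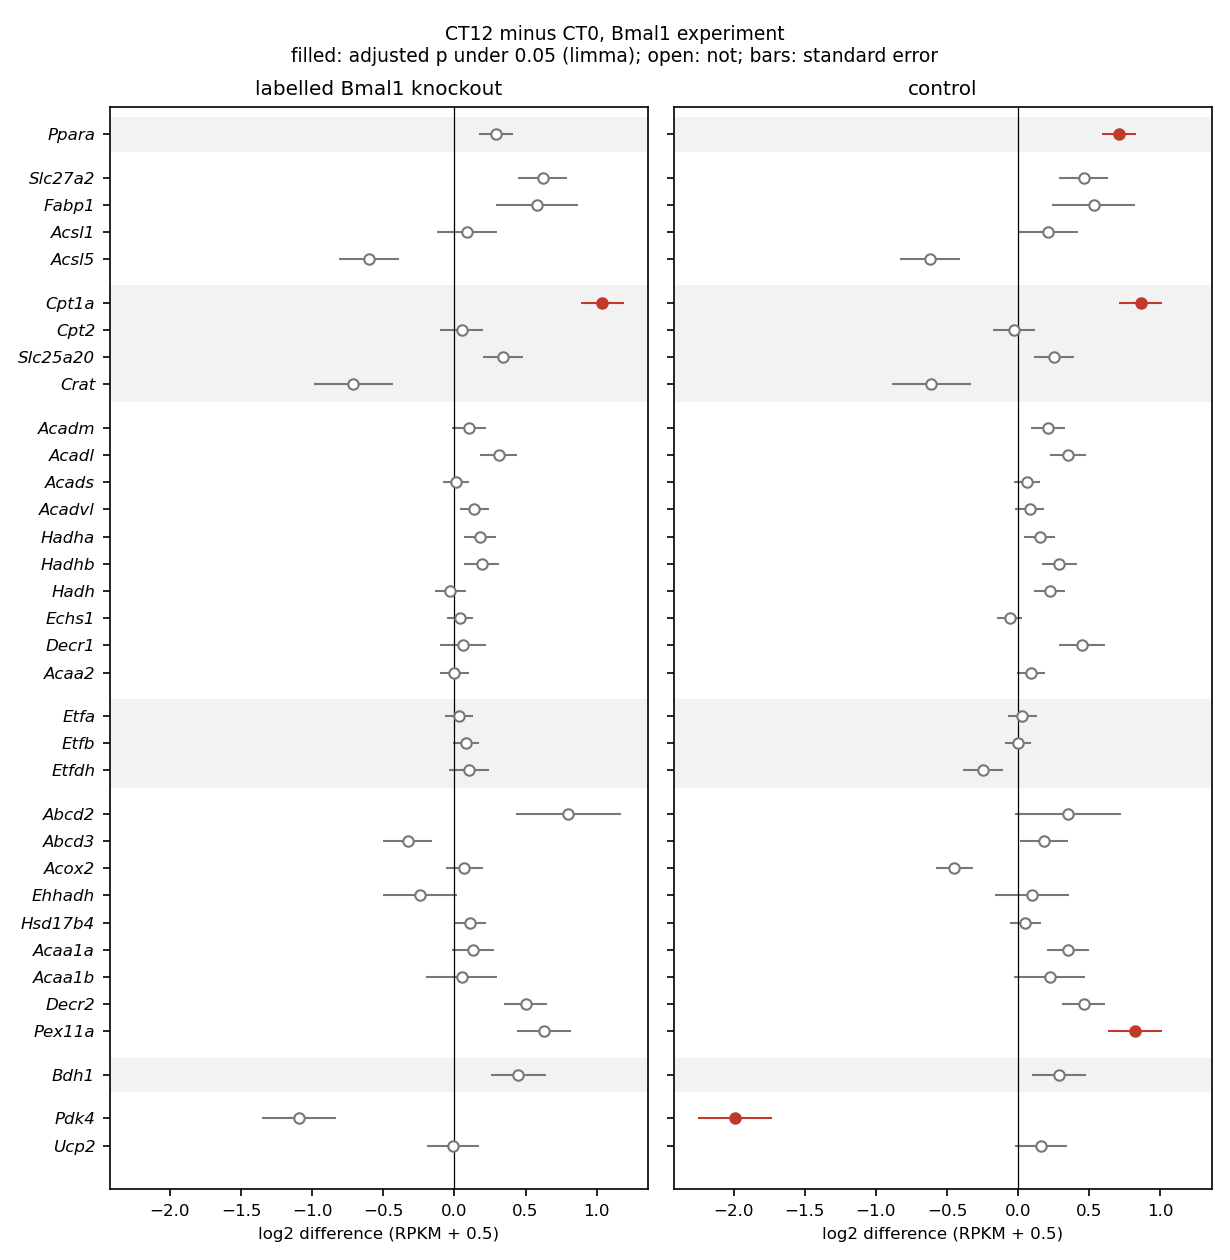
Log2 difference (RPKM + 0.5) between CT12 and CT0 in livers labelled Bmal1 knockout (left) and control livers (right), with bars for the standard error of the limma fit (n = 3 livers per group). Cpt1a is filled, with an adjusted p under 0.05, in both panels, and Ppara, Pex11a and Pdk4 are filled in the control panel alone.

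Whether the daily difference itself differed between genotypes was tested as an interaction, and limma called 0 of the 34 genes, where 1.31% of all genes were called, 0.97% higher and 0.341% lower. At an unadjusted p under 0.05 there were 3, namely Ppara (-0.43 ± 0.17, adjusted p = 0.341), Acox2 (0.53 ± 0.19, adjusted p = 0.274) and Pdk4 (0.90 ± 0.37, adjusted p = 0.362). Cpt1a (0.18 ± 0.21, adjusted p = 0.797 by limma) and Bdh1 (0.16 ± 0.26, adjusted p = 0.869 by limma) were not among them. Of all 11439 genes, 1356 passed this unadjusted threshold, a larger share than 3 of 34. A call in control livers and none in livers labelled Bmal1 knockout is thus not shown to be a difference for Ppara, Pdk4 or Pex11a. With median-ratio scaling the interaction split over all genes was 86 higher and 58 lower, in place of 111 higher and 39 lower.

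Genes of the wider pathway outside the 35 were read from 5 further lists. Among 14 tested targets of PPARA other than the 35 genes, 6 fell and 0 rose in livers labelled Bmal1 knockout at CT12, where 3.22% of all genes were called lower, and their median was -1.12. Acot3, a peroxisomal acyl-CoA thioesterase, measured 0.112, 0.326 and 0.474 RPKM in livers labelled Bmal1 knockout at CT12 and 7.72, 3.45 and 12.8 RPKM in control livers. The groups were far apart, and the log2 difference was -3.26 ± 0.45 (adjusted p = 0.000644 by limma). Cyp4a10, an ω-hydroxylase of fatty acids, fell as well (log2 difference -2.08 ± 0.59, adjusted p = 0.0447 by limma) and so did the thioesterase Acot1 (-1.94 ± 0.44, adjusted p = 0.017 by limma). Both belong to families of near-identical genes that may share reads. At CT0 the retinol saturase gene Retsat alone of this list was called, and it fell (-1.21 ± 0.25, adjusted p = 0.0332 by limma).

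Other oxidation enzymes were centred near all genes, with a median log2 difference of 0.03 in livers labelled Bmal1 knockout at CT12 against 0.09 for all genes. Of 25, 14 were positive and 11 negative, and 3 rose and 0 fell, where 6.46% of all genes were called higher, a share that was lower with median-ratio scaling, as given above. The 3 were the peroxisomal octanoyltransferase Crot (1.38 ± 0.30, adjusted p = 0.013 by limma), the lyase Hacl1 of peroxisomal α-oxidation (0.92 ± 0.26, adjusted p = 0.0465 by limma) and the reductase Pecr (0.32 ± 0.08, adjusted p = 0.0313 by limma). Of 5 genes of ketone body handling, 1 rose, the monocarboxylate transporter Slc16a1 (1.27 ± 0.13, adjusted p = 9.95e-05 by limma). Of 15 partners and coregulators of PPARA, the sister receptor Ppard rose (1.59 ± 0.27, adjusted p = 0.0029 by limma) and the sister receptor Pparg fell (-0.92 ± 0.21, adjusted p = 0.0153 by limma). Of 5 genes around malonyl-CoA, the inhibitor of CPT1A, the kinase subunit Prkaa2 fell (-0.58 ± 0.13, adjusted p = 0.016 by limma). With 9.68% of all genes called at CT12, 1 or 2 calls in lists this short are near that background. At CT0, where 1.62% of all genes were called, Pecr was the 1 further call among these lists (0.46 ± 0.08, adjusted p = 0.0194 by limma).

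Between the times, 2 of the 14 other PPARA targets rose and 1 fell in control livers, Acot3 (1.96 ± 0.45), Angptl4, an inhibitor of lipoprotein lipase (1.64 ± 0.43), and the lipid droplet gene Plin2 (-1.13 ± 0.19). The coactivator and phosphatidate phosphatase Lpin1 (3.05 ± 0.48), Esrra (0.58 ± 0.14), Eci2 (0.76 ± 0.18) and Prkaa2 (0.61 ± 0.13) rose as well. Ppard (-1.68 ± 0.27), Crot (-1.28 ± 0.30) and Slc16a1 (-1.03 ± 0.13) fell. Limma gave these 10 genes adjusted p-values of 0.000554 to 0.0321. Calls higher and lower were 2 and 1 of 15 partners and coregulators and 1 and 1 of 25 other oxidation enzymes. They were 0 and 1 of 5 genes of ketone body handling and 1 and 0 of 5 genes around malonyl-CoA. Of all genes, 3.4% were called higher and 7.43% lower in this comparison. In livers labelled Bmal1 knockout, Eci2, an isomerase of unsaturated acyl-CoA, was the 1 call of the 5 lists over time (0.79 ± 0.18, adjusted p = 0.0472 by limma). Of all genes, 1.9% were called there.

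In the Nr1d1 experiment, where all 35 genes passed the filter, 0 were called by limma in any of the 5 comparisons. The shares of all 12738 genes called were 0.0393% for genotype at CT12 (0.0314% higher and 0.00785% lower), 0% for genotype at CT0, 0.055% for time in livers labelled Nr1d1 knockout, 0.353% for time in control livers (0.173% higher and 0.181% lower) and 0% for the interaction. With median-ratio scaling the calls for time in control livers were 18 higher and 30 lower over all genes, in place of 22 higher and 23 lower, and those for genotype at CT12 were 1 higher and 1 lower, in place of 4 higher and 1 lower. At an unadjusted p under 0.05 there were 3, 1, 2, 10 and 5 of the 35 genes, in the same order of comparisons. Of all 12738 genes, 579, 575, 1833, 1031 and 538 passed this threshold, again in that order. With 2 livers per group, the values are therefore given within each replicate, as the liver labelled Nr1d1 knockout minus its control.

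At CT12, 13 of the 35 genes were lower in the liver labelled Nr1d1 knockout in both replicates (23.5% of all genes) and 7 were higher in both (31% of all genes). Of the 10 genes of mitochondrial β-oxidation, 5 were lower in both, 1 was higher in both and 4 were on different sides. For the 9 peroxisomal genes these counts were 3, 2 and 4. Ppara measured 45.0 RPKM in the liver labelled Nr1d1 knockout against 55.3 RPKM in its control in replicate 1, and 63.5 against 94.7 RPKM in replicate 2. Cpt1a measured 68.6 against 99.9 RPKM in replicate 1 and 162 against 289 RPKM in replicate 2, again with the liver labelled Nr1d1 knockout first. Both genes were lower in both livers labelled Nr1d1 knockout, with log2 differences of -0.29 and -0.57 for Ppara and -0.54 and -0.83 for Cpt1a in replicates 1 and 2. In the blocked fit Ppara had -0.43 ± 0.34 (adjusted p = 1 by limma) and Cpt1a -0.69 ± 0.33 (adjusted p = 1 by limma), and without knockout CT12 replicate 2 the difference of Ppara was 0.03.

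Bdh1 measured 101 RPKM in the liver labelled Nr1d1 knockout at CT12 against 174 RPKM in its control in replicate 1, and 472 against 709 RPKM in replicate 2. Pdk4 measured 2.01 against 1.04 RPKM in replicate 1 and 7.15 against 4.15 RPKM in replicate 2. Bdh1 was lower and Pdk4 higher in both livers labelled Nr1d1 knockout, with Bdh1 at -0.78 and -0.59 and Pdk4 at 0.70 and 0.72 on the log2 scale, and neither passed (blocked fit -0.68 ± 0.34 and 0.71 ± 0.35, adjusted p = 1 by limma for both). Fgf21 measured 0.58 against 0.264 RPKM in replicate 1 and 2.68 against 1.65 RPKM in replicate 2, higher in both livers labelled Nr1d1 knockout (0.53 ± 0.25, adjusted p = 1 by limma). Fabp1 was lower in both, with 2287 against 4345 RPKM and 10620 against 13664 RPKM. Acaa1b did not go the same way in the replicates, with log2 differences of 0.05 and -0.99. Acaa1a differed by -0.05 and -0.60.

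Acox2, which shortens the side chain of bile acid precursors, had the smallest p of the 35 genes at CT12. It measured 115 RPKM in the liver labelled Nr1d1 knockout against 58.2 RPKM in its control in replicate 1, and 383 against 175 RPKM in replicate 2. Both livers labelled Nr1d1 knockout were about as far above their controls (0.98 and 1.13 on the log2 scale), and the blocked fit gave 1.05 ± 0.18 (unadjusted p = 0.000431, adjusted p = 0.221 by limma). It was singled out after its values were seen.

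At CT0, 14 of the 35 genes were higher in both livers labelled Nr1d1 knockout (17.8% of all genes) and 4 were lower in both (33.2% of all genes). Of the 10 genes of mitochondrial β-oxidation, 8 were higher in both, 0 were lower in both and 2 were on different sides. For the 9 peroxisomal genes these counts were 2, 2 and 5. Cpt1a was a little higher in both (45.5 against 38.0 RPKM and 257 against 222 RPKM). Ppara (28.6 against 24.1 RPKM and 83.2 against 97.1 RPKM), Bdh1 (83.9 against 84.7 RPKM and 962 against 490 RPKM) and Pdk4 (3.67 against 3.32 RPKM and 7.43 against 22.6 RPKM) were on different sides in the replicates. Fgf21 was higher in both, with 0.646 against 0.154 RPKM and 2.66 against 2.27 RPKM. Limma gave these 5 genes differences between -0.71 and 0.50 with adjusted p-values of 0.873 to 0.996. Neither Ppara nor Cpt1a was lower in both replicates at CT0, and Cpt1a had -0.16 without control CT0 replicate 1 and -0.12 without knockout CT0 replicate 2.

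**Figure D4:**
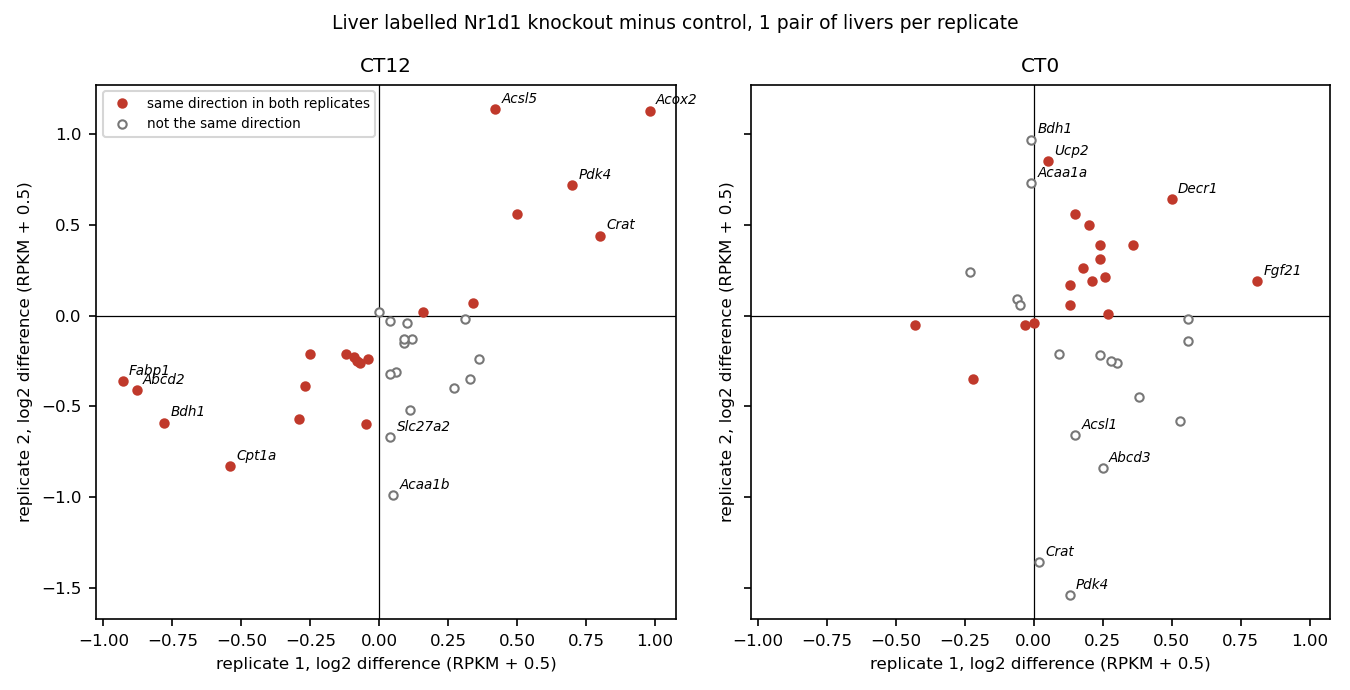
Log2 difference (RPKM + 0.5) between the liver labelled Nr1d1 knockout and its control in replicate 1 (horizontal) and replicate 2 (vertical), 1 point per gene, at CT12 (left) and CT0 (right). At CT12 Fabp1, Bdh1 and Cpt1a lie at the lower left and Pdk4 and Acox2 at the upper right, and at CT0 Pdk4 and Bdh1 lie near 0 in replicate 1 and far from 0 in replicate 2.

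Over time, 21 of the 35 genes were higher at CT12 than at CT0 in both control pairs (36.9% of all genes) and 5 were lower in both (15.5% of all genes). Of the 10 genes of mitochondrial β-oxidation, 7 were higher in both control pairs and 0 were called by limma, and Acadm (0.40 and -0.22), Acadvl (0.24 and -0.04) and Hadhb (0.42 and -0.04) were on different sides. Of the 9 peroxisomal genes, 6 were higher in both control pairs, 1 was lower in both and 2 were on different sides. Cpt1a measured 99.9 RPKM at CT12 against 38.0 RPKM at CT0 in control replicate 1 and 289 against 222 RPKM in control replicate 2. Pdk4 measured 1.04 RPKM at CT12 against 3.32 RPKM at CT0 in control replicate 1 and 4.15 against 22.6 RPKM in control replicate 2. Pdk4 was lower and Cpt1a higher at CT12 in both controls (-1.81 ± 0.35, adjusted p = 0.124, and 0.88 ± 0.33, adjusted p = 0.544, by limma). Bdh1 was higher at CT12 in both controls (1.03 and 0.53 on the log2 scale), Ppara in replicate 1 alone (1.18 and -0.04), and Fgf21 likewise (0.22 and -0.36).

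In livers labelled Nr1d1 knockout, 9 of the 35 genes were higher at CT12 in both replicates (47% of all genes) and 2 were lower in both (8.78% of all genes). The 10 genes of mitochondrial β-oxidation were all on different sides in the replicates. Of the 9 peroxisomal genes, 5 were higher in both, 1 was lower in both and 3 were on different sides. All genes had a median of 0.16 in this comparison, which median-ratio scaling shifted by 0.11, and the 35 genes had a median of 0.00. Cpt1a (0.58 and -0.66), Ppara (0.64 and -0.39) and Bdh1 (0.27 and -1.03) were on different sides in the replicates, and Pdk4 was lower in both (-0.73 and -0.05). Fgf21 differed by -0.09 and 0.01. Relative to the shift, Ppara had a difference of -0.01 with median-ratio scaling, against 0.13 without it. The interaction had 0 calls by limma, with Pdk4 at 1.42 ± 0.50 (adjusted p = 0.964) and Bdh1 at -1.16 ± 0.48 (adjusted p = 0.964). Ppara had -0.44 ± 0.48, Cpt1a -0.92 ± 0.47 and Fgf21 0.03 ± 0.35 (adjusted p of 0.973, 0.964 and 0.998 by limma). Of the 5 further lists, Lpin1 rose at CT12 in livers labelled Nr1d1 knockout (3.62 ± 0.40, adjusted p = 0.04 by limma) and in control livers (2.74 ± 0.40, adjusted p = 0.0444 by limma), and Ppard fell in control livers (-1.71 ± 0.25, adjusted p = 0.0444 by limma).

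Between livers of the Nr1d1 experiment markers moved as well. The 6 erythroid markers summed to 1.6e+03 and 1.11e+04 RPKM in the livers labelled Nr1d1 knockout at CT0, against 1.02e+03 and 2.87e+03 RPKM in their controls, as the lowest and highest of each group. The hepatocyte markers summed to 5.6e+04 and 2.98e+05 RPKM in the livers labelled Nr1d1 knockout at CT12, against 5.5e+04 and 2.84e+05 RPKM in their controls. At CT12 genotype differences were positive for 9 of 9 stellate cell, 9 of 9 endothelial and 10 of 10 Kupffer cell markers. Their medians were 0.52, 0.26 and 0.18, against 0.04 for all genes. Of 5 cholangiocyte markers 4 were positive and 1 negative, and of 8 hepatocyte markers 6 and 2. At CT0 10 of 10 Kupffer cell markers were positive, and 6 of 9 stellate cell and 4 of 5 cholangiocyte markers were negative. No marker was called in a genotype comparison by limma, and the part of the markers in the values above was not tested.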

How the data were processed

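TruSeq libraries of 20 livers were used, per the labels, and the 4C-seq data were not used here. The authors deposited RPKM values, 1 per Ensembl transcript and library, per the file contents. TopHat2, Bowtie and bedtools 2.19.1 with build mm9 stand in the submitters' processing notes, Bowtie not for the paired-end Nr1d1 libraries. No source used here gives the strand setting, read filters or depth measure. The tables were joined on 46585 transcripts, and each of 22322 symbols took its best expressed transcript.

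Tests used limma 3.58.1 (lmFit, contrasts.fit, eBayes with a trend; R 4.3.3) on log2(RPKM + 0.5), two-sided, keeping genes that averaged 0.5 RPKM or more over an experiment, 11439 for Bmal1 and 12738 for Nr1d1. The added 0.5 understates the change of low genes. All 4 groups of an experiment shared 1 fit, and calls needed an adjusted p under 0.05 (Benjamini-Hochberg). The Nr1d1 fit had replicate number as a block, since the labels describe replicate 2 alone as paired-end. Deviations of same-numbered livers correlated at 0.82 to 0.88 there (6 distinct values, since with 2 livers per group the pairs of replicate 2 mirror those of replicate 1) and at -0.06 to 0.12 in the Bmal1 experiment (18 pairs), which was fitted without the block. Whole reads, within a tolerance of 0.05, were recovered for 78.8% (Bmal1) and 46.0% (Nr1d1) of genes above 0, and the reads given for Fgf21 cover counting only.

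Genes named were those called in a comparison and Ppara, Cpt1a, Pdk4, Fgf21 and Bdh1, with levels per liver for these and for the largest called genotype differences, and up to 3 genes per further list. Other genes with levels or values were chosen after these were seen. The genes, lists and rules were chosen with earlier results of these data known. Alternatives were pseudocounts of 0.1 and 1, no filter, a minimum of 2 RPKM, median-ratio scaling, sums over transcripts, the compared groups alone, the block added or dropped, and each library left out. Steps were tested on simulated data.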

Additional observations from a re-analysis of the deposited data

Results flagged for a closer look

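Of the genes in the 5 further lists, 2 had effects of genotype that differed between CT12 and CT0 in the Bmal1 experiment, by the interaction of genotype and time in limma. For Crot the interaction was 2.20 ± 0.43 (adjusted p = 0.0279). Crot measured 222, 343 and 462 RPKM in livers labelled Bmal1 knockout at CT12 against 117, 104 and 162 RPKM in control livers. At CT0 it measured 114, 258 and 175 RPKM in livers labelled Bmal1 knockout against 260, 337 and 325 RPKM in control livers. All 3 were lower than the lowest control, 1 of them barely. The genotype difference of Crot at CT0 was not called (-0.82 ± 0.30, adjusted p = 0.24 by limma). For Slc16a1 the interaction was 1.09 ± 0.19 (adjusted p = 0.0164). Slc16a1 measured 19.1, 20.1 and 24.1 RPKM in livers labelled Bmal1 knockout at CT12 against 8.47, 9.39 and 7.56 RPKM in control livers, without overlap. At CT0 it measured 23.4, 18.2 and 19.5 RPKM in livers labelled Bmal1 knockout against 18.6, 19.8 and 15.4 RPKM in control livers, with overlap.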

How the results depend on the processing

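None of the called genes among the 35 changed sign under any alternative. For calls in the 5 further lists and among the markers, the alternatives were not examined. Among Ppara, Cpt1a, Pdk4, Fgf21 and Bdh1, the differences that were not called changed sign in 27 cases. The widest were those of Bdh1 in the Nr1d1 experiment. They were at CT0 (0.48, and -0.15 without knockout CT0 replicate 2) and over time in livers labelled Nr1d1 knockout (-0.38, and 0.25 without knockout CT0 replicate 2). Of the 35 genes, 9 were called for genotype at CT12 in the Bmal1 experiment, against 4 with no filter on RPKM, 14 with median-ratio scaling and 4 to 11 without 1 library. For genotype at CT0 the 4 calls became 2 with no filter and 0 to 5 without 1 library. Time in livers labelled Bmal1 knockout gave 1 call, 2 with median-ratio scaling, 0 with only the compared groups and 1 to 3 without 1 library, and time in control livers gave 4, 8 with only the compared groups and 3 to 6 without 1 library. The interaction gave 0 throughout. Replicate numbers did not pair the Bmal1 livers, and with replicate number as a block 7, 3, 1, 4 and 0 genes were called for genotype at CT12, genotype at CT0, time in livers labelled Bmal1 knockout, time in control livers and the interaction. In the Nr1d1 experiment 0 genes were called without the replicate block, and 1, Pdk4, over time in control livers with only the compared groups (adjusted p = 0.0221). Leaving out 1 Nr1d1 library gave 0 to 0 calls in each comparison, with the lone liver of a group assumed to vary like the others. The causes were not tested. The p-values set each difference against the spread between livers, at 2 to 3 per group. In the Nr1d1 experiment this is the spread left after the replicate block.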
